A study of Mus musculus with 8 samples.

Results

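The genes described here carry out or mark salt transport in the thick ascending limb, the nephron segment in which cinacalcet's target, the calcium-sensing receptor, is known to act on tubule cells. They are Slc12a1, Kcnj1, Kcnj10, Kcnj16, Bsnd, Umod, Ptger3 and Ppp1r1a, 8 of the 14209 genes measured. They were taken as a given list of symbols and found on the array by matching each non-control probe's RefSeq accession to a gene table, which gave 9 probes, 2 for Ptger3 and 1 for every other gene. All 9 probes were well above background on all 8 arrays.

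RNA came from whole kidney of mice labelled male and 12 weeks old. The control group, 4 samples, ate standard chow, and the cinacalcet group, 4 samples, received cinacalcet hydrochloride with the dose worded as 1 mg per g body weight. Treatment lasted 5 days, kidneys were snap frozen, and each RNA was read on 1 one-colour Agilent array. The labels name no strain and no genetic change, and do not say that each sample came from a separate animal. The p-values therefore cover sample-to-sample spread, which may be technical.

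In the thick ascending limb the apical cotransporter NKCC2, encoded by Slc12a1, brings sodium, potassium and chloride into the cell. The apical channel ROMK returns potassium to the lumen, and chloride leaves at the basolateral side through channels that need the subunit barttin. Activation of the calcium-sensing receptor in this segment is known to lower the reabsorption of salt, calcium and magnesium. Whole kidney holds many other cells, so fewer cells of a type and less RNA per cell cannot be told apart in these values.

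Levels are log2 of the processed spot intensity minus log2 of the same array's 75th percentile, so 1 unit is a factor of 2. The 75th percentile was 202.9 to 257.1 in intensity units and 51.8% to 58.0% of non-control spots per array were well above background. Levels of different genes come from different probes and are not ranked against each other. Control 4, cinacalcet 2 and cinacalcet 3 go against the label male: none of 4 Y-linked genes was well above background on these 3 arrays, while 3 or 4 were on each of the other 5, and Xist was at 0.46 to 0.95 on the 3 and at -6.99 to -4.22 on the 5. Fold changes of the 8 genes are therefore given for all 8 arrays, with that split entered as a block in the fit (the sex-linked block), and for the 5 Y-positive arrays, which are controls 1 to 3 and cinacalcet 1 and 4. Every fold change sets cinacalcet over control and was fitted in limma, with Benjamini-Hochberg adjustment over all genes tested and a threshold of 0.05.

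None of the 8 genes passed the threshold on the 8 arrays, where 8.02% of all genes did. In none were the groups free of overlap, as they were in 17.8% of all genes. Their median log2 fold change was 0.02, beside -0.03 over all genes, and the median size of change was 0.14, beside 0.17. The largest estimate was a 1.26-fold higher level of Kcnj10. With the sex-linked block, Kcnj10 rose and Kcnj1 fell, 2 of 8 genes where 17.0% of all genes passed. On the 5 arrays none of the 8 passed, where 7.85% of all genes did.

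**Figure D1:**
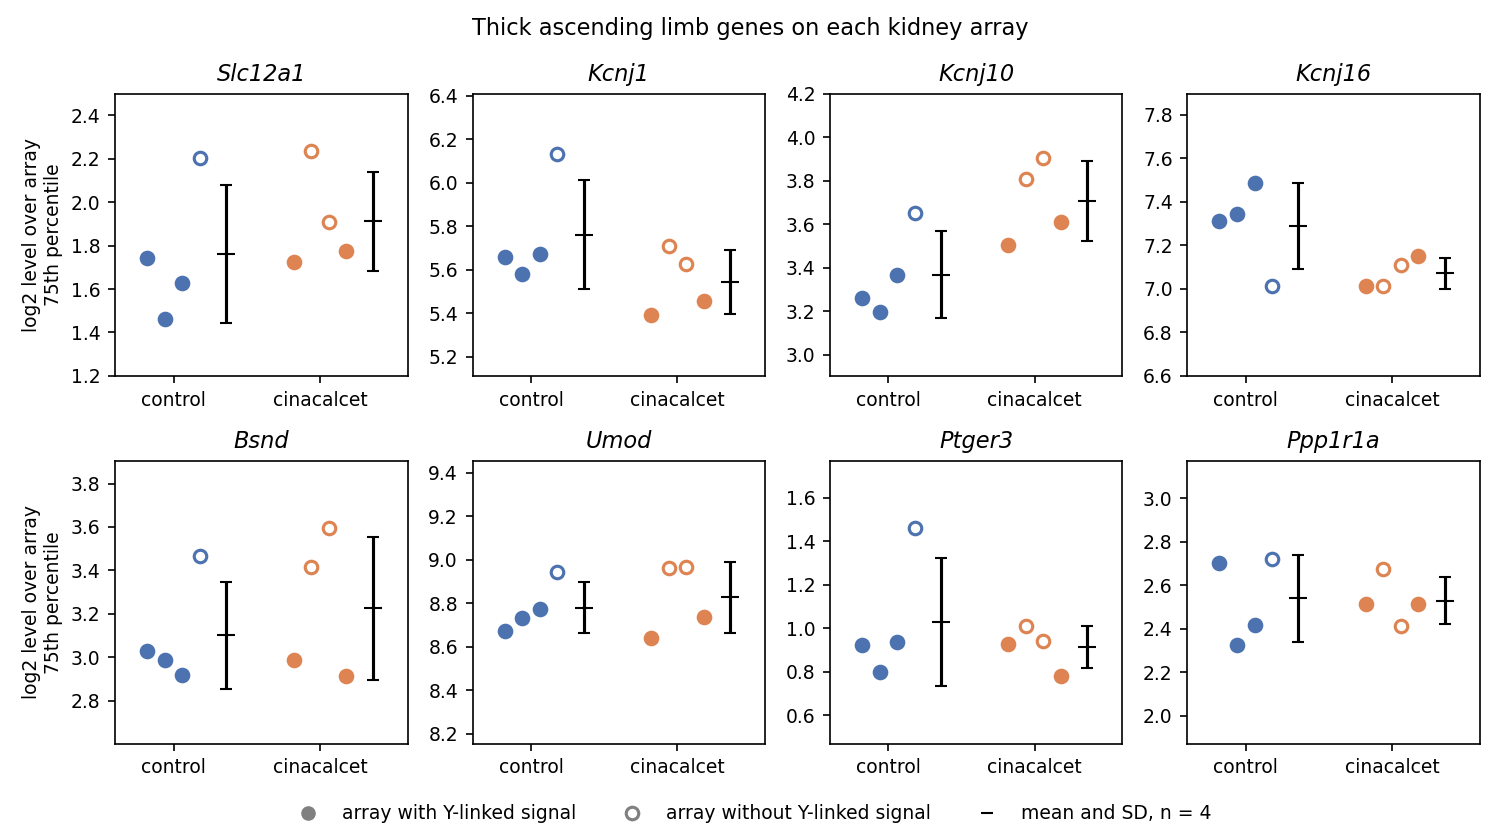
Level of each of the 8 genes (log2 intensity over the array's 75th percentile, every panel spanning 1.3 units) on 4 control and 4 cinacalcet arrays, with open circles for the 3 arrays without Y-linked signal and bars for mean and SD (n = 4). The open circles lie above the filled ones of their own group for 6 genes, Kcnj16 and Ppp1r1a being the exceptions.

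Sequences at transcript starts of 4 of these genes are shown because the results below turn on them: Slc12a1 as the segment's main salt entry gene, Kcnj1 and Kcnj10 as the genes called with the block, and Kcnj16 as the partner of Kcnj10. Each covers 250 bases before to 50 after a start that RefSeq gives on GRCm38.p6, written 5′ to 3′ along the gene. The Kcnj1 window is at an internal start, well inside the gene's annotated span of chr9:32372418-32399197, and not upstream of the gene. RefSeq tables gave such windows for 6 of the 8 genes, 9 windows in all, of which 4 belong to Kcnj16 and the most upstream is shown. Capitals mark a match to a searched motif.
Slc12a1, chr2:125152350-125152649, plus strand: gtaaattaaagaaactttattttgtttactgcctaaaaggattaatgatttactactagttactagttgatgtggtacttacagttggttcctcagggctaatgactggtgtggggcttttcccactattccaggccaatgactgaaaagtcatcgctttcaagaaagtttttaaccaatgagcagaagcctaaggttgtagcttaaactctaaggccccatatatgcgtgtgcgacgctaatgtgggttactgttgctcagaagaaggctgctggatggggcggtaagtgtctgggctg
Kcnj1, chr9:32393735-32394034, plus strand: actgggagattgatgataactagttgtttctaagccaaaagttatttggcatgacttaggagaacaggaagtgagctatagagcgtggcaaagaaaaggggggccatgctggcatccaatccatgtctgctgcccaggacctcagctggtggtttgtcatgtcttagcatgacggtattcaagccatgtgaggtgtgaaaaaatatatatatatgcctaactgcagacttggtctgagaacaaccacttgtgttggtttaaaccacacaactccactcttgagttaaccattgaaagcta
Kcnj10, chr1:172340960-172341259, plus strand: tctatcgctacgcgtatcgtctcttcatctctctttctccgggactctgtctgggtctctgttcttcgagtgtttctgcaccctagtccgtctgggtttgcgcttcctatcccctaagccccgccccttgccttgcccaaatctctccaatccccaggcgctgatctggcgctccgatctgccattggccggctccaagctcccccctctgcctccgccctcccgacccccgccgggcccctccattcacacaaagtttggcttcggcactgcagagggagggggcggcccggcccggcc
Kcnj16, chr11:110967783-110968082, plus strand: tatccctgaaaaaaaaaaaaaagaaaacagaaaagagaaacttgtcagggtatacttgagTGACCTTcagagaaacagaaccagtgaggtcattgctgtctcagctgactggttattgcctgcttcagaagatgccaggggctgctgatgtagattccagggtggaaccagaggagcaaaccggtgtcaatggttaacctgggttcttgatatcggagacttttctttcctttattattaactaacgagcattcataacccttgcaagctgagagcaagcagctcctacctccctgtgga
Both strands were searched for 4 motifs: AAGGTCA of the estrogen-related receptors, the TATA box TATAAA, and the longer palindromic HNF1 site and glucocorticoid response element. No match overlaps another. Of 32851 windows of this length, 4.72% hold AAGGTCA, 13.6% hold TATAAA, and 0.00913% hold each of the HNF1 site and the glucocorticoid element. In the 9 windows, AAGGTCA occurs once, on the reverse strand of the Kcnj16 window shown, and TATAAA once, in another Kcnj16 window. The 4 motifs have no match in the windows of Slc12a1, Kcnj1, Kcnj10, Ptger3 and Umod. The shown window of Kcnj10 is 63.7% G or C, against 42.7% for Slc12a1, 43.7% for Kcnj1, 44.3% for Kcnj16 and a median of 52.7% over all windows.

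Slc12a1, the salt entry gene and the target of loop diuretics, showed no change past the threshold. Its levels were 1.74, 1.46, 1.63 and 2.20 on controls 1 to 4, and 1.73, 2.23, 1.91 and 1.78 on cinacalcet 1 to 4. The groups overlapped: control 4 lay above 3 of the 4 cinacalcet arrays. Slc12a1 had a log2 fold change of 0.15 with a 95% interval of -0.25 to 0.56 (limma adjusted p = 0.609), which in fold terms runs from 0.838 to 1.47. With the sex-linked block the estimate was 0.04, with an interval of -0.21 to 0.29, and on the 5 Y-positive arrays 0.14. With single arrays left out it ran from 0.04 without cinacalcet 2 to 0.30 without control 4. Array weights gave 0.35 (95% interval 0.05 to 0.66, limma adjusted p = 0.0679) and slide column as a block 0.39 (95% interval -0.28 to 1.05), neither of which passed. The slide column fit sets only Y-positive controls against cinacalcet arrays without Y-linked signal. Treatment and the split cannot be told apart in that fit.

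Kcnj1 encodes ROMK, the potassium channel of the apical membrane in this segment and in the collecting duct. Its levels were 5.66, 5.58, 5.67 and 6.13 on controls 1 to 4, and 5.39, 5.71, 5.63 and 5.46 on cinacalcet 1 to 4. Control 4 was the highest of the 8 arrays, and cinacalcet 2 lay above controls 1 to 3, so the groups overlapped, at a log2 fold change of -0.22 (95% interval -0.53 to 0.10, limma adjusted p = 0.338).

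With the sex-linked block Kcnj1 fell by 0.30 on the log2 scale (95% interval -0.47 to -0.13, limma adjusted p = 0.0311), where 10.4% of all genes passed as lower. On the 5 Y-positive arrays the log2 fold change of Kcnj1 was -0.21 and did not pass (limma adjusted p = 0.125). Among the other 3 arrays, where control 4 is the only control, the difference was -0.46. Slide column as a block gave 0.00 for Kcnj1 (limma adjusted p = 0.996), in a fit whose only pairs across groups are control 3 beside cinacalcet 2, and control 1 beside cinacalcet 3. In each pair only the control is Y-positive, so treatment and the split cannot be told apart there.

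The ratio of Kcnj1 to Slc12a1 on the same array does not depend on the scale between arrays. On the log2 scale it was 3.92, 4.12, 4.04 and 3.93 on controls 1 to 4, and 3.66, 3.47, 3.72 and 3.68 on cinacalcet 1 to 4. All cinacalcet ratios lay below all control ratios, with means of 4.00 ± 0.10 (SD, n = 4) and 3.63 ± 0.11 (SD, n = 4). The ratios of Kcnj10, Kcnj16, Bsnd, Umod, Ptger3 and Ppp1r1a to Slc12a1 overlapped between the groups. Among all other genes set against Slc12a1 in this way, 3.42% had ratios that were lower without overlap and 1.94% had ratios that were higher without overlap. The ratio of Kcnj1 to Slc12a1 was picked after its values were seen and was not tested.

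Kcnj10 and Kcnj16 encode the subunits of the basolateral potassium channel, which is best known from the distal convoluted tubule and is also present in the thick ascending limb. Kcnj10 levels were 3.26, 3.20, 3.37 and 3.65 on controls 1 to 4, and 3.50, 3.81, 3.91 and 3.61 on cinacalcet 1 to 4. Every cinacalcet array lay above controls 1 to 3, and control 4 lay above cinacalcet 1 and 4. Kcnj10 had a log2 fold change of 0.34 (SE 0.13, 95% interval 0.04 to 0.63), or 1.26-fold, which did not pass after adjustment (limma adjusted p = 0.135).

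With the sex-linked block Kcnj10 rose by 0.26 on the log2 scale (95% interval 0.10 to 0.41, limma adjusted p = 0.0416), where 6.64% of all genes passed as higher. On the 5 Y-positive arrays the estimate was 0.28 and did not pass (limma adjusted p = 0.103). Without control 4 it was 0.43 and passed (limma adjusted p = 0.0332), and 7.84% of all genes passed as higher in that fit. That fit holds only Y-positive controls beside cinacalcet arrays of both kinds. It has no term for the split, so its estimate does not separate treatment from the split. When all 29730 kept probes were tested with the block, where 11.1% of them passed, Kcnj10 did not pass (limma adjusted p = 0.0656) and Kcnj1 did (limma adjusted p = 0.0488). The sign of Kcnj10 was positive in all 25 alternatives run, from 0.25 to 0.54, though several could not change the estimate. The probe filters, mean over probes, eBayes settings, and replicate and slide row blocks left it unchanged by design.

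Kcnj16 levels were 7.31, 7.34, 7.48 and 7.01 on controls 1 to 4, and 7.01, 7.01, 7.11 and 7.15 on cinacalcet 1 to 4. Controls 1 to 3 lay above every cinacalcet array, and control 4 lay among the cinacalcet arrays. Its log2 fold change was -0.22 (95% interval -0.46 to 0.03, limma adjusted p = 0.222). With the block it was -0.18 (limma adjusted p = 0.224), and without control 4 it was -0.31 and passed (limma adjusted p = 0.0259), in a fit where 15.8% of all genes passed as lower. As for Kcnj10, the fit without control 4 has no term for the split and does not separate it from treatment. For Kcnj16 the mean of cinacalcet 2 and 3 minus that of cinacalcet 1 and 4 was -0.02. On the 5 arrays Kcnj16 was at -0.30 and did not pass (limma adjusted p = 0.102). The estimate was negative in all 25 alternatives, from -0.35 to -0.08, though several could not change it, as for Kcnj10. With array weights, where 38.3% of all genes passed, Kcnj10 rose by 0.46 and Kcnj16 fell by 0.32 on the log2 scale (limma adjusted p of 0.0105 and 0.0146).

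The estimates of both subunits thus had opposite signs. The log2 ratio of Kcnj10 to Kcnj16 signal on the same array was -4.05, -4.15 and -4.12 on controls 1 to 3, -3.36 on control 4, and -3.51, -3.20, -3.20 and -3.54 on cinacalcet 1 to 4. Control 4 fell within the cinacalcet range, and the other controls lay below it. Since each signal comes from its own probe, the ratio does not give the ratio of the transcripts. It was chosen after its values were seen and carries no test.

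**Figure D2:**
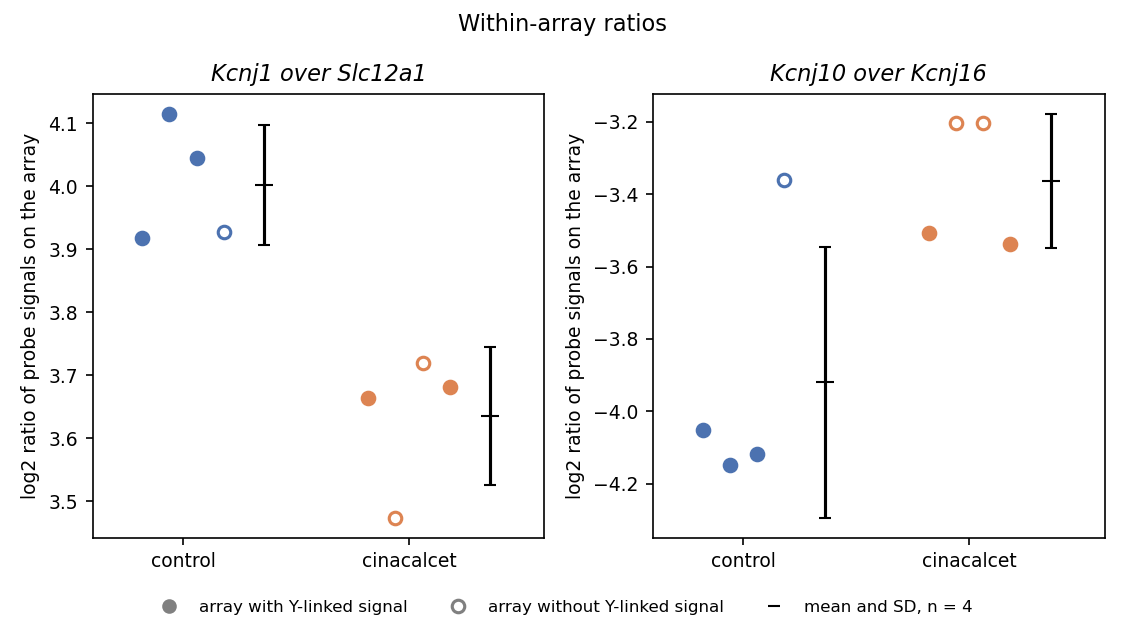
Log2 ratio of probe signals on the same array, Kcnj1 over Slc12a1 (left) and Kcnj10 over Kcnj16 (right), for 4 control and 4 cinacalcet arrays, with bars for mean and SD (n = 4) and open circles for arrays without Y-linked signal. The left ratio separates the groups at 3.72 against 3.92, and in the right one control 4 at -3.36 lies among the cinacalcet arrays.

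Bsnd encodes barttin, the subunit that chloride channels need at the basolateral membrane of this segment and in the inner ear. Its levels were 3.03, 2.99, 2.92 and 3.47 on controls 1 to 4, and 2.99, 3.41, 3.59 and 2.91 on cinacalcet 1 to 4. Both groups covered much the same range, with control 4, cinacalcet 2 and cinacalcet 3 high. The log2 fold change was 0.13 (95% interval -0.30 to 0.55, limma adjusted p = 0.690). With the block it was 0.00 with an interval of -0.16 to 0.15, and on the 5 arrays -0.03. With single arrays left out the Bsnd estimate ran from 0.00 without cinacalcet 3 to 0.25 without control 4. Array weights gave 0.34 (95% interval 0.02 to 0.67, limma adjusted p = 0.0884) and slide column as a block 0.53 (95% interval 0.07 to 0.99, limma adjusted p = 0.173), neither of which passed. As for Slc12a1, the slide column fit cannot tell treatment from the split.

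Umod encodes uromodulin, the protein that this segment secretes into urine. Its levels were 8.67, 8.73, 8.77 and 8.94 on controls 1 to 4, and 8.64, 8.96, 8.97 and 8.74 on cinacalcet 1 to 4. The processed intensity was 93929 to 126475, and no array had a saturated spot. The groups overlapped, with a log2 fold change of 0.05 (95% interval -0.19 to 0.28, limma adjusted p = 0.799). In fold terms the interval runs from 0.877 to 1.22, and with the block the log2 interval was -0.15 to 0.12. The Umod estimate was negative with the block and on the 5 arrays, at -0.02 and -0.04.

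Ptger3 encodes a prostaglandin receptor that opposes cyclic AMP signalling in this segment and is also expressed in collecting duct and other cells. On its brighter probe the levels were 0.92, 0.80, 0.94 and 1.46 on controls 1 to 4, and 0.93, 1.01, 0.94 and 0.78 on cinacalcet 1 to 4. Control 4 stood above the other 7 arrays, which lay between 0.78 and 1.01. The log2 fold change was -0.12 (95% interval -0.45 to 0.21, limma adjusted p = 0.631). It was -0.19 with the block and -0.03 on the 5 arrays (limma adjusted p of 0.226 and 0.828).

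The dimmer Ptger3 probe was at 0.38, 0.14, 0.24 and 1.14 on controls 1 to 4, and at 0.46, 0.51, 0.28 and 0.32 on cinacalcet 1 to 4. Control 4 was again the highest array. In a fit over all 29730 kept probes, of which 6.04% passed, this probe had a log2 fold change of -0.08 (limma adjusted p = 0.834). Without control 4 the brighter probe had a log2 fold change of 0.03.

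Ppp1r1a encodes inhibitor-1, a protein phosphatase inhibitor switched on by protein kinase A and found in this segment. Its levels were 2.70, 2.32, 2.42 and 2.72 on controls 1 to 4, and 2.52, 2.67, 2.41 and 2.51 on cinacalcet 1 to 4. The cinacalcet arrays all lay inside the range of the controls. The log2 fold change was -0.01 (95% interval -0.27 to 0.25, limma adjusted p = 0.954), and 9 of 25 alternatives gave the opposite sign, up to 0.09. Ppp1r1a was at -0.04 with the block and 0.03 on the 5 arrays.

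**Figure D3:**
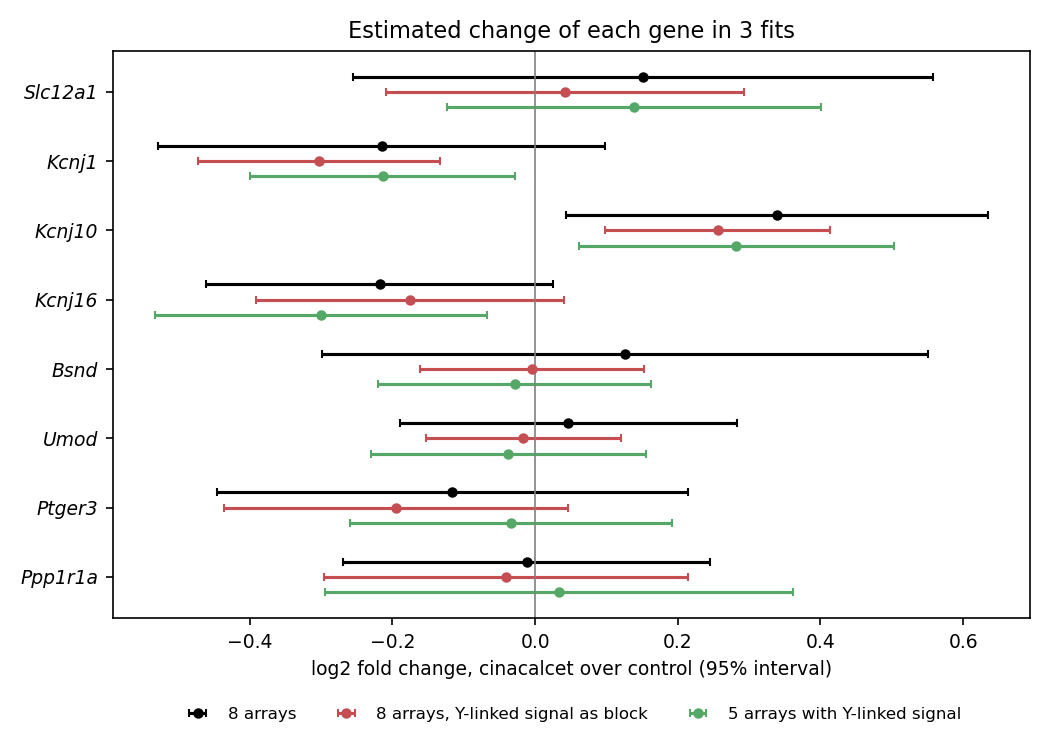
Log2 fold change of cinacalcet over control with 95% limma intervals for each gene in 3 fits: all 8 arrays, all 8 with the sex-linked block, and the 5 Y-positive arrays. On the 8 arrays the interval of Kcnj10 alone leaves out 0, before adjustment for the number of genes tested, and on the 5 arrays those of Kcnj1, Kcnj10 and Kcnj16 do.

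A difference between arrays that crossed the treatment groups was visible in most of these genes. In 6 of the 8, namely Slc12a1, Kcnj1, Kcnj10, Bsnd, Umod and Ptger3, control 4 lay above the other controls and both cinacalcet 2 and cinacalcet 3 lay above cinacalcet 1 and 4. Of all genes 15.4% had this order and 22.0% had the reverse. Control 4 exceeded the mean of controls 1 to 3 by 0.59 for Slc12a1, 0.57 for Ptger3, 0.49 for both Kcnj1 and Bsnd, 0.37 for Kcnj10 and 0.22 for Umod.

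In the cinacalcet group the mean of arrays 2 and 3 exceeded that of arrays 1 and 4 by 0.55 for Bsnd, 0.32 for Slc12a1, 0.30 for Kcnj10, 0.28 for Umod, 0.24 for Kcnj1 and 0.12 for Ptger3. The dimmer Ptger3 probe did not show this order. Over all genes the median excess of control 4 was -0.06. The same 6 genes showed the order under quantile normalization and with normexp background correction. Kcnj16 went the other way in controls, where control 4 was 0.37 below the mean of the rest, and Ppp1r1a was at similar levels on controls 1 and 4.

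Markers of several cell types differed along the same line. The same order was seen in 4 of 5 thick ascending limb markers, 3 of 3 markers of the distal convoluted tubule, 4 of 5 of intercalated cells and 3 of 3 of podocytes. Of all genes, as given above, 15.4% had it and 22.0% had the reverse. The thick ascending limb markers include Slc12a1 and Umod, already counted above. The order was seen in 2 of 4 markers of principal cells and 2 of 7 of the proximal tubule, of which 3 had the reverse, while all 3 blood markers had the reverse order. Smooth muscle had it in 2 of 3 markers, inner medulla and thin limb in 2 of 3, and endothelium in 1 of 4. No macrophage or brown fat marker had it. The part of sex, cell makeup or sampling in these levels was not tested. The principal cell marker Scnn1g was not measured.

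Between the treatment groups the thick ascending limb markers, Slc12a1, Umod, Cldn16, Cldn19 and Cldn10, gave no call in 5 measured on the 8 arrays, and their summed linear level was 451 to 532 in controls and 436 to 536 with cinacalcet. That sum is mostly the signal of the Umod probe and says little about the other markers. The sum for the proximal tubule was 1070 to 1315 in controls and 1053 to 1292 with cinacalcet, with none of 7 genes called. Blood markers did differ, with 3 of 3 lower and a sum of 396 to 565 in controls and 79.6 to 264 with cinacalcet, and both measured macrophage markers were lower (28.6 to 31.5 and 18.6 to 24.4). Most of the blood sum comes from Hba-a1. Of the brown fat markers 1 of 3 was lower, and their sum was 7.64 to 39.6 in controls and 0.630 to 12.9 with cinacalcet. The marker called was Ucp1, well above background on only 2 of 4 cinacalcet arrays. On most arrays the larger part of that sum came from Cidea, which did not pass (limma adjusted p = 0.188). Once the block was fitted, 2 of the 5 thick ascending limb markers fell, Cldn16 by 0.24 and Cldn10 by 0.32 on the log2 scale (limma adjusted p of 0.0437 and 0.0432), and the proximal tubule marker Slc22a6, an organic anion transporter gene, fell by 0.43 (limma adjusted p = 0.0307) and on the 5 arrays by 0.58 (limma adjusted p = 0.0442). In the same fit 1 of 3 distal convoluted tubule markers and 1 of 3 podocyte markers fell, 1 of 4 principal cell and 1 of 5 intercalated cell markers rose, and the blood, macrophage and brown fat counts were those of the 8 arrays. Of all genes 10.4% passed as lower and 6.64% as higher with the block, and 4.64% as lower on the 8 arrays. On the 5 arrays 7.85% passed in either direction. The part of blood, immune or fat RNA in the levels of the 8 genes was not tested.

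Other genes of the segment were described from 3 lists with 34 genes, of which 32 were measured. On the 8 arrays 3 rose and none fell, where 3.37% of all genes rose and 4.64% fell, and their median log2 fold change was 0.05. The block gave 6 that rose and 3 that fell, where 6.64% of all genes rose and 10.4% fell. On the 5 arrays 3 rose and none fell, where 7.85% of all genes passed in either direction. In the array order described above, control 4 and cinacalcet 2 and 3 were high for 13 of the 32 and low for 4, beside 15.4% and 22.0% of all genes.

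Of 5 transport partners none passed on the 8 arrays, and with the block none passed. Their median log2 fold change was -0.11. The brightest was Fxyd2, a regulator of the sodium pump, at 10.21 ± 0.15 in controls and 10.10 ± 0.04 with cinacalcet (SD, n = 4).

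Of 17 measured regulators 1 rose on the 8 arrays, Sgk1, a kinase that raises sodium transport, and with the block 3 rose and 1 fell. Sgk1 had a log2 fold change of 1.22, 1.19 with the block and 1.51 on the 5 arrays (limma adjusted p of 0.0113, 0.00785 and 0.0170). The median log2 fold change of the list was 0.15. The brightest that did not pass on the 8 arrays were Ppp1ca, a catalytic subunit of the phosphatase that inhibitor-1 acts on, and Pth1r, the parathyroid hormone receptor gene, with log2 fold changes of -0.08 and -0.33 (limma adjusted p of 0.570 and 0.182). With the block Pth1r fell by 0.23 on the log2 scale (limma adjusted p = 0.0459), and Ppp1ca was at -0.04 (limma adjusted p = 0.697). The kinase gene Wnk1, which acts upstream of the cotransporter's activating kinases, had 0.34 (limma adjusted p = 0.207) and rose with the block by 0.23 (limma adjusted p = 0.0408). Casr, the calcium-sensing receptor gene, had 0.52 (limma adjusted p = 0.0941) and rose with the block by 0.41 (limma adjusted p = 0.0304). On the 5 arrays Pth1r, Wnk1 and Casr did not pass (limma adjusted p of 0.131, 0.148 and 0.105). Wnk1 and Casr were named after their values were seen.

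Of 10 paracellular and marker genes 2 rose on the 8 arrays, Cldn14 and Esrrb. Esrrb encodes an orphan nuclear receptor of the estrogen-related family, whose core motif AAGGTCA was among those searched above. Its levels were 3.61, 3.75, 3.84 and 4.09 on controls 1 to 4, and 4.30, 4.68, 4.81 and 4.41 on cinacalcet 1 to 4. All cinacalcet arrays lay above all controls, which 8.01% of all genes did. It rose 1.65-fold (log2 fold change 0.73, SE 0.14, limma adjusted p = 0.0270), by 0.63 on the log2 scale with the block (limma adjusted p = 0.00478) and by 0.62 on the 5 arrays (limma adjusted p = 0.0351).

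Cldn14, a claudin that limits paracellular calcium passage, ranged from -4.80 to -2.92 in controls and from -1.07 to 0.44 with cinacalcet, without overlap. Its probe was well above background on 2 of 4 control arrays, so the control level is only partly measured and the fitted size is not a measured fold. It rose in all 3 fits (limma adjusted p of 0.0104 on the 8 arrays, 2.01e-05 with the block and 0.00421 on the 5 arrays). The brightest genes of the list that did not pass were Egf, a growth factor gene of the distal nephron, at 0.46 (limma adjusted p = 0.122), and Cldn10, a sodium-selective claudin of this segment, at -0.36 (limma adjusted p = 0.0674). With the block Egf rose by 0.34 and Cldn10 fell by 0.32 on the log2 scale (limma adjusted p of 0.0217 and 0.0432), and on the 5 arrays neither passed (limma adjusted p of 0.0824 and 0.0660).

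**Figure D4:**
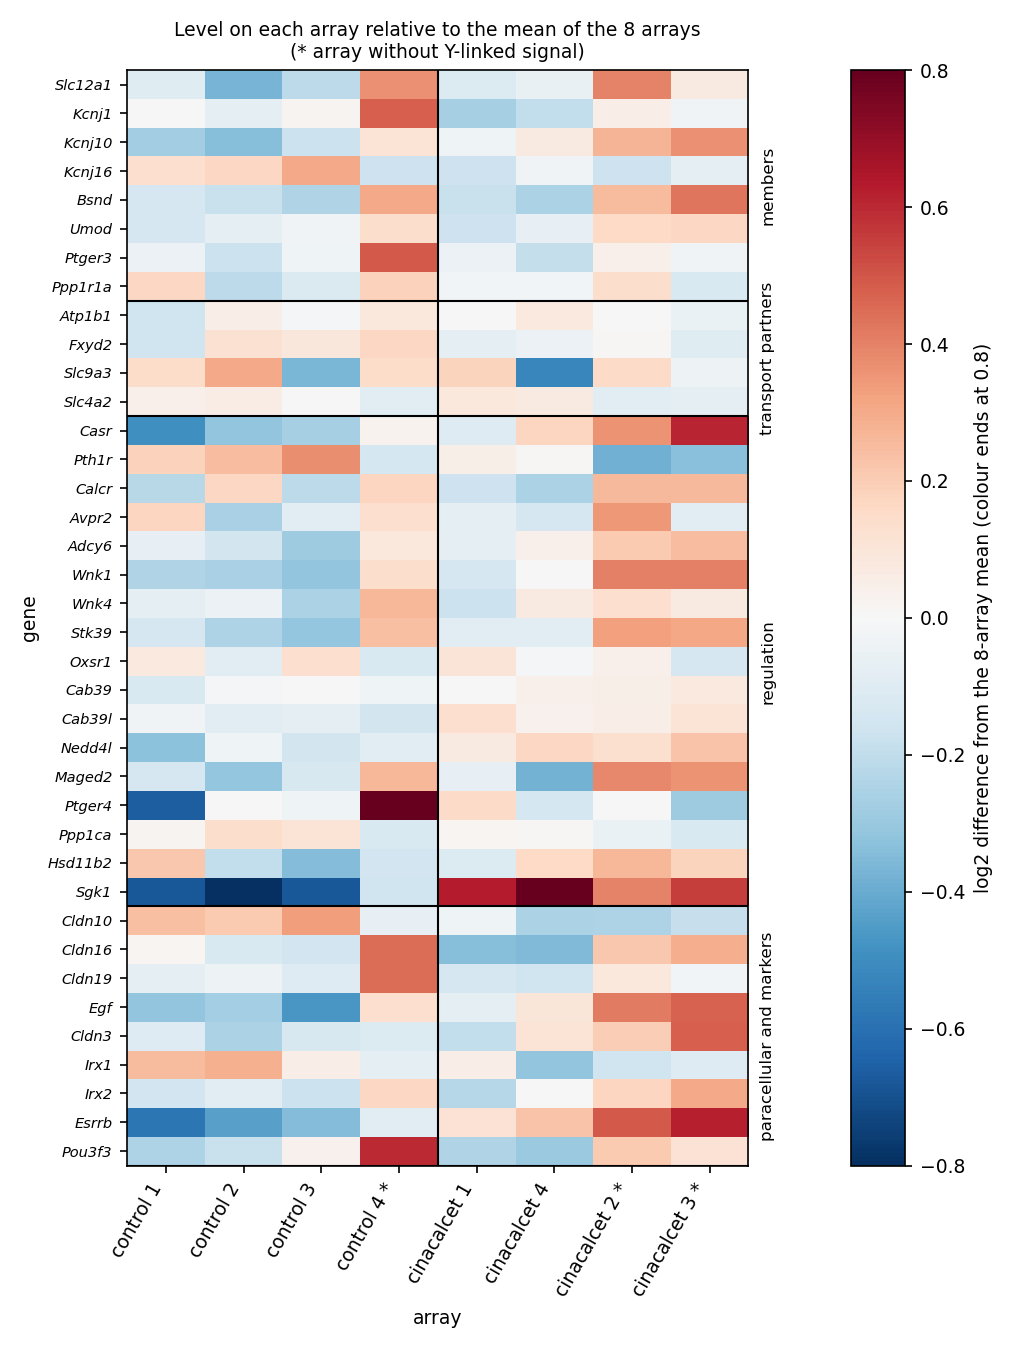
Log2 level of the 8 genes and 30 other measured genes of the segment on each array, relative to that gene's mean over the 8 arrays, with red higher and blue lower and the colour ending at 0.8 units. Cldn14 and Kcnma1, each well above background on 2 of 4 control arrays, are left out, Ptger4, not above background on 1 cinacalcet array, is shown, and asterisks mark the 3 arrays without Y-linked signal. The columns with an asterisk are higher than the other columns of their own group for 6 of the 8 genes.

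Genes whose profile over the 8 arrays was closest to that of Slc12a1 and of Umod were found by the root mean square difference of centred log2 levels. For Slc12a1 the closest were Slc16a5, of the monocarboxylate transporter family, at 0.039, the pyruvate kinase gene Pkm at 0.069, the tyrosine aminotransferase gene Tat at 0.074, D16Ertd472e at 0.075 and the lipase gene Abhd6 at 0.078, against a median of 0.329 over all genes. For Umod they were Ppargc1a, a transcriptional coactivator gene, at 0.033, S100a16 at 0.042, Pantr1 at 0.043, Luzp1 at 0.045 and Srpk2 at 0.047, against a median of 0.234. That these 10 genes share the array order of Slc12a1 and Umod follows from how they were chosen.

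Among the members, Kcnj10 was the nearest to Slc12a1, at 0.169, and Kcnj16 the farthest, at 0.393, which is beyond the median of all genes. These distances share the same 8 arrays and the same scale, and favour genes with a change of like size.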

How the data were processed

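Cy3-labelled kidney RNA of 4 control and 4 cinacalcet samples was read on 1 slide of single-colour Agilent arrays. The authors' deposited files hold spot intensity on a linear scale, background-corrected by Agilent Feature Extraction 11.0.1.1 per the file headers (9.5 per the submitters' processing notes), with no normalization between arrays recorded. Spots that the software marked as outliers were left out, spots of a probe were averaged on the log2 scale, and each array's 75th percentile was subtracted.

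Probe names came from RefSeq accessions (table of GRCm38.p6). Probes well above background on at least 4 arrays were kept, and the brightest stood for its gene. Groups were compared with limma 3.58.1 in R 4.3.3 (lmFit, eBayes) without covariates. The fit was checked on simulated data. The array number limits the precision.

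The members and lists were chosen with earlier results of these data known, as was the split by Y-linked signal, which was tried as a block and by leaving out the 3 arrays. Named genes are all members with every probe, from each list those past the threshold plus the 2 brightest others, and the 5 closest profiles for Slc12a1 and Umod. Some listed genes are not reported here, were left out of the list counts and were not replaced among the genes named. Other alternatives were normalizations, normexp background correction on the median signal with an offset of 50, filters, the mean over probes, eBayes settings, array weights, blocks for replicate number and slide position, and leaving out each array.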

Additional observations from a re-analysis of the deposited data

Results flagged for a closer look

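One value stood apart within its group by Dixon's test, the level of Kcnj1 on control 4, at 6.131 on the log2 scale. Its gap to the next control was 0.830 of the range of the 4 controls, just above the critical value for 4 samples. The test was run on 16 sets of 4 arrays, and chance marks about 1 in 20. Control 4 is an array without Y-linked signal, and without it the log2 fold change of Kcnj1 was -0.09 (limma adjusted p = 0.488). That fit holds only Y-positive controls beside cinacalcet arrays of both kinds, so it does not separate treatment from the split. On the 5 Y-positive arrays, which also leave out control 4, Kcnj1 was at -0.21 (limma adjusted p = 0.125).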

How the results depend on the processing

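Of 25 alternatives per gene, 1 of them added after seeing the data (the block over all kept probes), Slc12a1, Kcnj10 and Kcnj16 kept their sign in all, and Slc12a1, Bsnd, Umod, Ptger3 and Ppp1r1a passed the threshold in none. The probe filters, eBayes settings, and replicate and slide row blocks could not change an estimate or its sign. With array weights 2 of the 8 genes passed, where 38.3% of all genes did. They were Kcnj10 at 0.46 and Kcnj16 at -0.32 on the log2 scale (limma adjusted p of 0.0105 and 0.0146). With the sex-linked block 2 passed, Kcnj1 at -0.30 and Kcnj10 at 0.26, where 17.0% of all genes did. With the block over all kept probes, of which 11.1% passed, Kcnj1 alone passed at the same value, in a fit of more features. With single arrays left out 0 to 2 passed, and the 2 are Kcnj10 and Kcnj16 without control 4, where all controls left are Y-positive. Without control 4, 7.84% of all genes passed as higher and 15.8% as lower. Over the fits with single arrays left out the log2 fold change ranged from 0.04 to 0.30 for Slc12a1, 0.00 to 0.25 for Bsnd, -0.28 to -0.09 for Kcnj1, 0.27 to 0.43 for Kcnj10, -0.31 to -0.15 for Kcnj16, -0.19 to 0.0273 for Ptger3, -0.0841 to 0.0476 for Ppp1r1a and 0.00 to 0.11 for Umod, which turned sign at -0.000405 without cinacalcet 3.

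Other changes of sign were small values that did not pass. Ppp1r1a was at 0.0197 with quantile normalization, 0.0475 and 0.0589 with normexp and the 75th percentile or quantile normalization, 0.0823 with array weights, 0.0928 within slide row 1 and 0.0335 on the 5 Y-positive arrays. Ptger3 was at 0.0336 with array weights, 0.0442 with slide column as a block and 0.0657 within slide row 1. Kcnj1 was at 0.00198 with slide column as a block. Bsnd was at -0.0846 within slide row 2, and Bsnd and Umod were at -0.00472 and -0.0164 with the sex-linked block, over genes or all kept probes, and -0.0288 and -0.0372 on the 5 arrays. The cause was not tested.

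The count over all genes was 1139, with 367 without the filter on dim probes, 5438 with array weights, 2417 with the sex-linked block, 34 with slide column as a block, 1 and 0 within slide rows 1 and 2 (3860 and 1068 at an unadjusted limma p under 0.05), and 218 to 3356 with single arrays left out (218 without control 2 and 3356 without control 4). Deviations of same-numbered samples from their group means correlated across genes at 0.34, -0.54, -0.36 and -0.56 for replicates 1 to 4. Replicate 1 is Y-positive in both groups, and replicates 2 to 4 each join a Y-positive array with one without Y-linked signal. These values therefore cannot show whether the replicate numbers pair the samples. The replicate block gave 0 genes in limma, with 2869 at an unadjusted p under 0.05, and none of the 8 members passed (limma adjusted p of 0.261 for Kcnj10 to 0.965 for Ppp1r1a). With 4 arrays a group, the median SE over the 8 genes was 0.13 log2 units, beside a median size of change of 0.14, so most changes of this size are below what the fit can resolve.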
